A study of Toxocara canis with 2 samples.

Results

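Transcription factors of adult Toxocara canis, the roundworm of dogs, were compared between an adult male and an adult female worm. The labels give both worms as strain Rongchang, and 1 library was made from the whole body of each sex. Members were the rows of the authors' table of unigenes (assembled transcripts) whose Swiss-Prot name or KEGG definition held 1 of 8 expressions: homeobox, nuclear hormone receptor, forkhead, T-box, GATA, POU domain, helix-loop-helix or transcription factor. The rule matched 119 of 21280 rows. Of these, 3 DM-domain rows matching mab-3 were set aside as sex regulators, 0 had a first protein hit in Dictyostelium, and 116 unigenes remained. A name states only the best database match, and 107 of the 116 had their first Nr hit in a nematode.

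Transcription factors are proteins that bind DNA at promoters and enhancers and raise or lower transcription of nearby genes. Homeobox, POU, forkhead and T-box factors are known from animal development, where they fix the identity of body regions and cell types. Nuclear hormone receptors are factors that many small lipophilic ligands can switch, and nematodes carry an enlarged family that descends from a receptor like hepatocyte nuclear factor 4 (HNF4). General transcription factors, in contrast, assemble with RNA polymerase II at promoters of most genes.

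The male library held 18.4 M and the female library 19.8 M fragments (M, mega). Levels are given as FPKM, fragments per kilobase of unigene and per M fragments of the library. The authors' table lists only unigenes they had called different, and in the authors' deposited table the smallest log2 ratio among the members was 1.006 in size and the highest false discovery rate 0.00070. Each member therefore had to differ at least 2-fold, and a factor at similar levels in both worms carries no name here and is not described. Neither sex was replicated, so no test was run, and each difference is between these 2 libraries. Fold differences are ratios of library shares with an exact 95% binomial interval that covers counting error only. A ratio against 0 fragments is given as a lower bound, with the 0 set to 3 fragments. In whole-body RNA, fewer cells of a type and less RNA per cell cannot be told apart. Sperm and yolk markers mostly moved with the labelled sex. All 5 rows described as major sperm protein were higher in the male worm, at 276558 against 77 fragments in sum. Of 3 vitellogenin rows, 2 were higher in the female worm, and the other was higher in the male worm, with 0 female fragments. The 3 summed to 8992 male and 1637777 female fragments. The part of germline and yolk RNA in the results was not tested.

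Most transcription factor matches were higher in the female worm. The 4 male-side matches past the size rule given below were ceh-6, Lhx2 and 2 of uncertain name. The most abundant male-side match was a bZIP factor whose descriptions name different genes. Of the 116 members, 91 (78.4%) were higher in the female and 25 in the male worm. Among all 6803 rows of the same table with a Swiss-Prot or KEGG description, 53.8% were higher in the female and 46.2% in the male worm. A size rule asked for a log2((female FPKM + 1)/(male FPKM + 1)) of 2 or more in size, a 4-fold difference after adding 1, and for 5 FPKM or more in the worm with the higher level. It was passed by 16 members (13.8%) higher in the female worm, beside 9.05% of described rows. In the male direction it was passed by 4 members (3.45%), beside 13.8% of described rows. Over all 21280 rows, described or not, 44.3% were higher in the female and 55.7% in the male worm, and the size rule was passed by 7.84% and 14.8%. Over all 70267 unigenes it was passed by 2.38% and 4.5%. These shares are descriptions without a test. The median log2 value over all 116 members was 1.04, and 0.56 over all described rows. A mean of at least 1 FPKM was reached by 85 of the members, whose median was 1.20, beside 0.98 for described rows under the same filter. Because rows under a 2-fold difference are not in the table, both medians describe lists from which smaller differences had been removed.

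**Figure D1:**
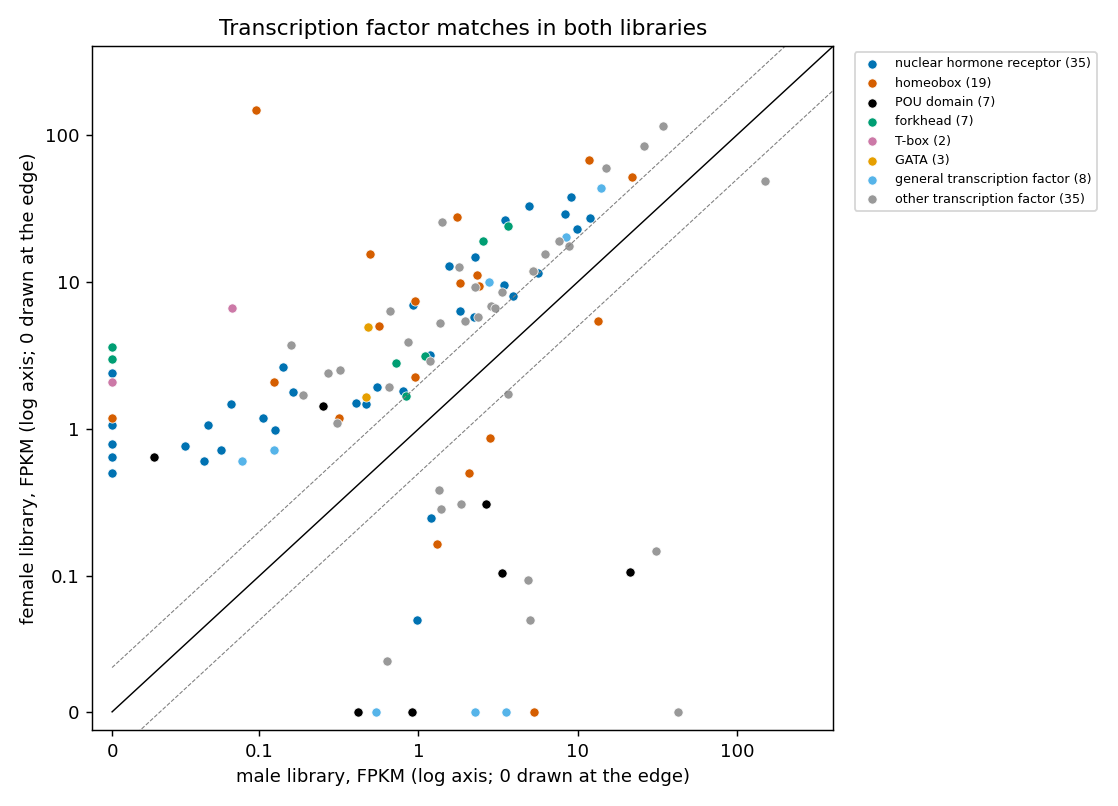
Each point is 1 of the 116 members, with its level in the male worm on the x axis and in the female worm on the y axis, both in FPKM on log axes with 0 drawn at the edge. The solid line marks equal levels and the dashed lines 2-fold differences. Of the points, 91 lie above the solid line and 25 below it.

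Levels were low, as they were over all described rows. The median FPKM of a member in its higher library was 3.78, against 4.35 for described rows. Of the 116 members, 62 (53.4%) stayed under 5 FPKM in both libraries, beside 53.3% of described rows. Together the members took 1011 per M fragments in the male worm and 1776 per M in the female worm. Counts were small as well, with fewer than 100 fragments over both libraries for 50 members. Of the 54 members that reached 5 FPKM in either worm, 48 (88.9%) were higher in the female worm, beside 59.9% of described rows at that level. Among the 62 lower members 43 (69.4%) were, beside 48.4% of described rows under 5 FPKM, so the female share was larger at higher levels in both lists.

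**Figure D2:**
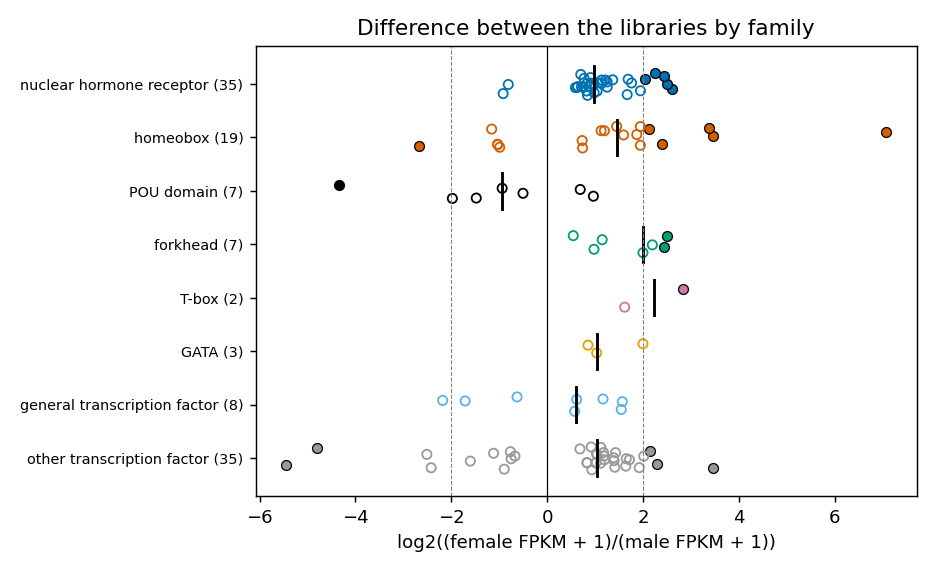
Each point is a member, placed by log2((female FPKM + 1)/(male FPKM + 1)) on the x axis and by family on the y axis, with filled points past the size rule and a bar at the median of all members of the family. Dashed lines mark a value of 2 in either direction. Nuclear hormone receptors, forkhead, T-box and GATA matches lie almost wholly on the female side, and POU matches mostly on the male side.

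Nuclear hormone receptors were the largest family and were higher in the female worm with few exceptions. Of 35 matches, 33 were higher in the female worm and 2 in the male, with log2 values from -0.92 to 2.60. The size rule was passed by 5 (14.3%) in the female direction and 0 in the male direction, beside 9.05% and 13.8% of described rows. All 25 matches whose KEGG definition placed them in the HNF4 or NR2A group were higher in the female worm. Of these 25, however, 9 were contigs of the single nhr-69 cluster described further on. Without these 9 contigs, the split of the whole family was 24 to 2.

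The receptors at the highest levels differed by 2.29-fold to 7.51-fold. A match to nhr-49 (Unigene5287), which in Caenorhabditis elegans controls fatty acid metabolism, was at 3.48 FPKM in the male worm and 26.2 FPKM in the female, a female-to-male ratio of 7.51 (6.05 to 9.42). A further nhr-49 match (Unigene20764) was at 8.25 against 28.9 FPKM, a female-to-male ratio of 3.50 (3.06 to 4.01). Nr describes the first as NHR-32 and the second as NHR-49, so the symbol names the closest Swiss-Prot entry rather than a settled ortholog. The most abundant receptor in the female worm was a match to nhr-19 (Unigene18091), at 9.06 against 37.8 FPKM (ratio 4.17, 3.63 to 4.81). A match to nhr-10 (Unigene18160), a regulator of propionate breakdown in C. elegans, was at 4.90 against 32.7 FPKM, a female-to-male ratio of 6.66 (5.58 to 8.01). Nr describes it as NHR-17, so here too the symbol names only the closest Swiss-Prot entry. The level of nhr-4 (Unigene2182), at 11.9 against 27.3 FPKM, was the highest of the family in the male worm and differed by 2.29-fold (1.95 to 2.70).

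Lower in level, 3 further receptors passed the size rule in the female direction. A match to nhr-23 (Unigene49), which drives the molting cycle in C. elegans, was at 0.931 FPKM in the male worm and 7.01 FPKM in the female, a female-to-male ratio of 7.53 (5.03 to 11.7). For nhr-62 (CL2208.Contig2), needed in C. elegans for long life under dietary restriction, the values were 1.55 and 12.9 FPKM, a female-to-male ratio of 8.30 (6.22 to 11.3). Its cluster mate CL2208.Contig1, not called by the authors, had 37 male and 21 female fragments, and over both contigs the ratio was 5.07 (4.04 to 6.43). A match to nhr-53 (Unigene16626) was at 2.28 against 14.6 FPKM (ratio 6.42, 5.20 to 8.0). These 3, with the first nhr-49 match and nhr-10 above, were the 5 receptors past the size rule.

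The remaining receptors did not pass the size rule, and several with low counts had larger ratios than the receptors above. The nhr-1 match (Unigene12157) was at 9.81 and 22.7 FPKM in the male and female worms, a female-to-male ratio of 2.32 (2.04 to 2.65). A pair of nhr-31 matches, named for a receptor of excretory cell growth in C. elegans, was higher in the female worm as well, with ratios of 2.79 (2.34 to 3.34) on CL3328.Contig1 and 2.58 (2.02 to 3.32) on Unigene4835. The nhr-64 matches had 0 male and 26 female fragments on Unigene41364, at least 8.04-fold higher in the female worm, and 4 and 47 on Unigene41363, a female-to-male ratio of 10.9 (3.99 to 41.7). A match to nhr-35 (CL2898.Contig1) had 3 and 36 fragments, at 0.107 and 1.19 FPKM, a ratio of 11.1 (3.52 to 56.5). Over all contigs of its cluster the fragments were 51 male and 97 female, a smaller ratio of 1.77 (1.25 to 2.53). The match to the insect receptor HR96 (CL1210.Contig24), a sensor of foreign compounds and lipids in Drosophila, had 41 male and 156 female fragments, at 0.551 and 1.94 FPKM. The match named HR38 (Unigene19758) had an E-value of 3e-06 and a homeobox definition in KEGG, so its place in the family is uncertain. Symbols repeated within the family, such as nhr-28, nhr-4 and nhr-62, went to the female side in each of their matches.

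Both exceptions rested on few fragments. A match to nhr-67 (CL2444.Contig3), the C. elegans relative of the insect gene tailless, had 18 male fragments and 1 female fragment, at 0.984 against 0.0507 FPKM, a male-to-female ratio of 19.4 (3.06 to 808). A match to nhr-14 (CL3813.Contig3) had 53 male and 12 female fragments, at 1.19 against 0.251 FPKM (male-to-female ratio 4.76, 2.51 to 9.78). Both lay under 5 FPKM in both libraries. When all contigs of their clusters were summed, the male-to-female ratio was 2.69 (1.34 to 5.78) for nhr-67 and 2.75 (2.02 to 3.79) for nhr-14.

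**Figure D3:**
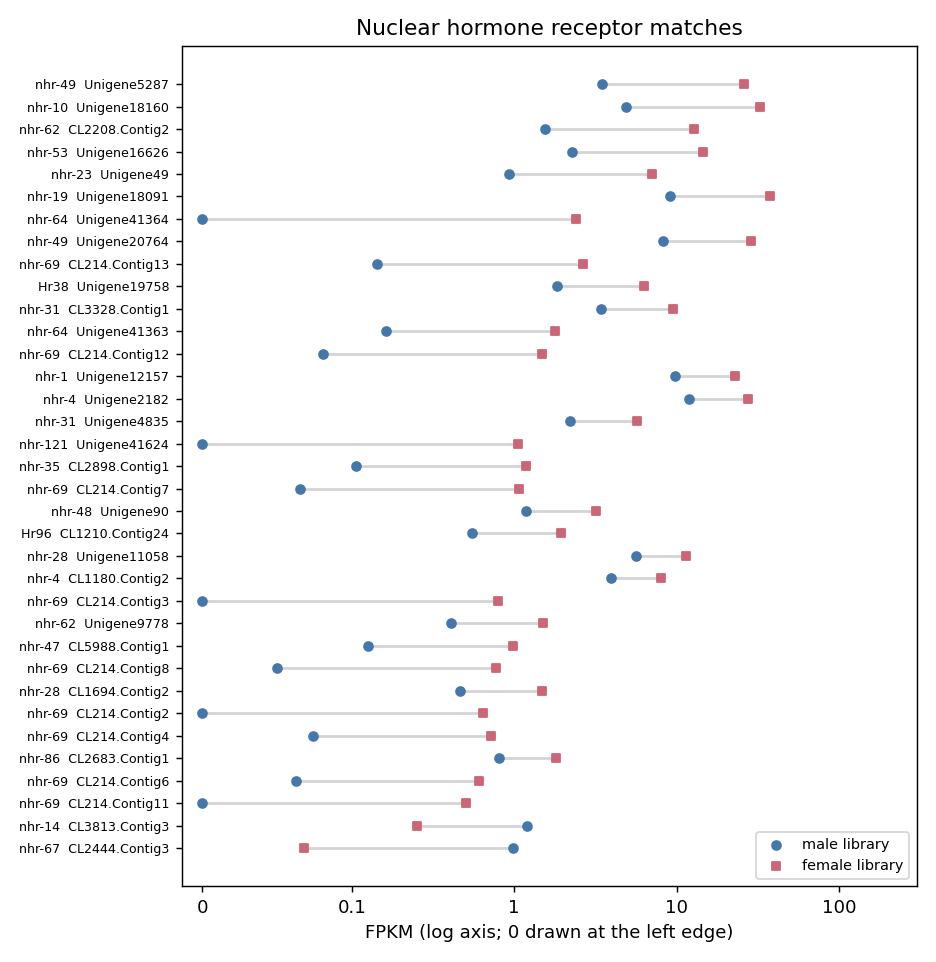
Each line is a nuclear hormone receptor match, labelled with the gene symbol of its Swiss-Prot hit and the unigene, with its FPKM in the male worm (circle) and in the female worm (square) on a log axis with 0 at the left edge. Squares lie to the right of circles for 33 of the 35 matches, and nhr-14 and nhr-67 at the bottom are the exceptions.

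The nhr-69 matches show how contigs inflate a count. Cluster CL214 (contigs that share a cluster name have related sequence) held 13 contigs, of which 9 were members, all named nhr-69, and the RefSeq gene list of the T. canis assembly Toxocara_canis_adult_r1.0 holds 1 gene of that symbol. The 9 members had 0 to 4 male and 21 to 80 female fragments each. Contigs 2, 3 and 11 had 21 female fragments each and contigs 7, 8 and 12 had 24 each, so the same fragments may have been counted on several contigs. Over all 13 contigs the cluster summed to 11 male and 285 female fragments, a female-to-male ratio of 24 (13.2 to 48.7). This interval, like that of each cluster sum given here, takes each fragment as counted once and is too narrow where fragments were repeated. The best measured contig (CL214.Contig13) was at 0.142 against 2.64 FPKM.

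Homeobox factors, whose DNA-binding homeodomain is known for setting positions and cell fates in embryos, leaned to the female worm and held the largest difference of all members. Of 19 matches, 14 were higher in the female worm, 5 by the size rule, and 5 in the male worm, 1 by the size rule. The size rule shares were 26.3% and 5.26%, beside 9.05% and 13.8% of described rows. A match to Hhex (Unigene39748), a homeodomain repressor that acts in blood and liver development in vertebrates, had 1 male and 1665 female fragments. It stood at 0.0954 against 147 FPKM, a female-to-male ratio of 1545 (277 to 61069), and was the most abundant member in the female worm. The 2 libraries thus differ for this unigene by its near absence from the male library.

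The next homeobox matches differed by smaller folds, on more male fragments. A match to zag-1 (Unigene6042), a zinc finger homeobox factor of neurons in C. elegans, was at 0.50 FPKM in the male worm and 15.5 FPKM in the female, a female-to-male ratio of 31.0 (19.7 to 51.9). A match to Otx1 (Unigene18714), from a family of head and brain factors in vertebrates, was at 1.74 against 27.6 FPKM (ratio 15.8, 11 to 23.7). The match to IRX-5 (Unigene1806), an Iroquois-class homeodomain factor, was abundant in both, at 21.8 and 51.2 FPKM, and differed by 2.35-fold (2.17 to 2.54). Nr describes it as IRX-1, but its KEGG definition is HEX, the same as for the Hhex match.

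Muscle segment homeobox matches reached 5 FPKM in the female worm, and NK-type matches were lower. The vab-15 matches, of the MSX class that shapes neurons and epidermis in C. elegans, were at 0.567 and 5.04 FPKM on Unigene41112 (female-to-male ratio 8.88, 4.08 to 22.9) and at 2.41 and 9.30 FPKM on Unigene20846 (ratio 3.86, 2.48 to 6.24). A ceh-9 match (Unigene45037) had 1 male and 18 female fragments, and a match to Nkx-2.1 (CL2056.Contig2), a factor of thyroid and forebrain in vertebrates, had 0 and 13. Counts this small give the ratio only within a wide interval, 2.64 to 696 for ceh-9.

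Hox-type factors and their cofactors were mostly higher in the female worm. An uncharacterized homeobox match (Unigene4749), placed by KEGG in the group of the anterior Hox gene Hox1, was at 11.8 against 66.8 FPKM, a female-to-male ratio of 5.65 (4.73 to 6.81). For the match to ceh-13 (Unigene9940), the Hox1 gene of C. elegans, the levels were 1.81 and 9.82 FPKM (ratio 5.43, 3.74 to 8.11). A match to pal-1 (CL4423.Contig2), the C. elegans relative of caudal, went the other way, at 2.82 against 0.874 FPKM (male-to-female ratio 3.23, 1.69 to 6.6). The Hox cofactor matches ceh-20 (CL3462.Contig1) and extradenticle (CL2817.Contig2) had female-to-male ratios of 7.88 (5.81 to 10.9) and 4.81 (3.60 to 6.52). These are Swiss-Prot names. Nr describes both unigenes as ceh-20, and KEGG gives both the same definition. The RefSeq list holds 2 genes of the symbol ceh-20, and which unigene belongs to which gene was not tested. In each of these cofactor clusters the other, slightly longer contig was not called by the authors and was nearly level in fragments, with 216 male and 219 female on CL3462.Contig2 and 114 and 114 on CL2817.Contig1. Summed over both contigs, the ratio was 2.18 (1.88 to 2.53) for the ceh-20 cluster and 2.21 (1.84 to 2.65) for the extradenticle cluster, so the excess lay mainly on the member contigs.

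On the male side, a LIM homeobox match (CL807.Contig2), described in Nr as Lhx2, had 54 male and 0 female fragments. Its male level was 5.34 FPKM, at least 19.4-fold higher than in the female worm. The cut-like match ceh-44 (Unigene15928) was at 13.4 against 5.44 FPKM, a male-to-female ratio of 2.46 (2.20 to 2.75). The remaining 2 male-side matches (Unigene29965 and Unigene7250) were named Homeobox protein Wariai after a protein of the amoeba Dictyostelium, but their KEGG definition was an ankyrin repeat subunit of protein phosphatase 6.

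**Figure D4:**
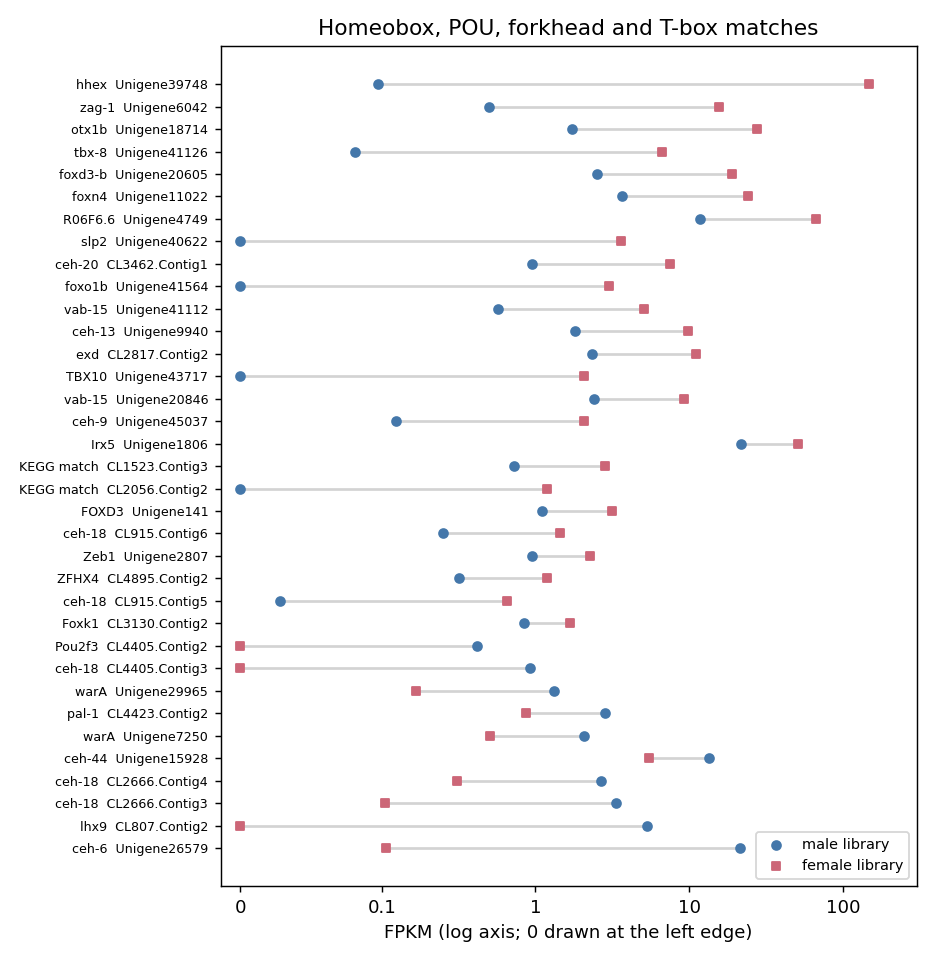
Each line is a homeobox, POU, forkhead or T-box match, with its FPKM in the male worm (circle) and in the female worm (square) on a log axis with 0 at the left edge, ordered by the log2 value. Hhex at the top reaches 147 FPKM in the female worm from 0.0954 FPKM in the male, and ceh-6 at the bottom runs the other way.

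POU factors, which carry a POU-specific domain beside a homeodomain, were the only family here with more matches higher in the male worm. The male worm had the higher level for 5 of 7 members and the female worm for 2. The match to ceh-6 (Unigene26579), a POU class 3 factor of the excretory and rectal cells in C. elegans, had 558 male and 3 female fragments. It was at 21.3 FPKM in the male worm and 0.106 FPKM in the female, a male-to-female ratio of 200.4 (68.2 to 975). It alone of the POU family passed the size rule, 14.3% of 7 members, beside 13.8% of described rows in the male direction.

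The other 6 POU matches were placed by KEGG in class 2 and split by cluster. Most were named ceh-18, a POU factor that in C. elegans acts in the gonadal sheath and restrains oocyte maturation. In cluster CL2666, contigs 3 and 4 had 89 and 119 male against 3 and 15 female fragments. Cluster CL4405 had 59 male and 0 female fragments over 4 contigs. In cluster CL915, contigs 5 and 6 had 1 and 10 male against 32 and 62 female fragments. Cluster sums followed the same pattern, with CL2666 8.38-fold (5.75 to 12.6) and CL4405 at least 21.2-fold higher in the male worm, and CL915 5.97-fold higher in the female worm (3.51 to 10.8). The RefSeq list holds 4 T. canis genes with the symbol ceh-18, and which cluster belongs to which gene was not tested. Levels were low throughout, with a highest value of 3.35 FPKM on CL2666.Contig3.

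Forkhead, T-box and GATA matches were all higher in the female worm, on modest numbers of fragments. Forkhead factors, winged-helix proteins that include regulators of gut formation and of insulin signalling, had 7 members, of which 2 passed the size rule. That share, 28.6% beside 9.05% of described rows in the female direction, rests on few members. A match to FoxD3 (Unigene20605), placed by KEGG in the FoxL group, was at 2.52 against 19.0 FPKM (ratio 7.52, 5.55 to 10.4), and a FoxN4 match (Unigene11022) at 3.63 against 24.1 FPKM (ratio 6.64, 5.31 to 8.39). A sloppy-paired match (Unigene40622) and a FoxO match (Unigene41564) had 0 male fragments and 64 and 25 female fragments, which puts them at least 19.8-fold and 7.73-fold above the male worm. The other 3 forkhead matches lay between 2.01-fold and 3.90-fold, among them a match to FoxD3 (Unigene141) at 1.10 against 3.14 FPKM (ratio 2.85, 1.84 to 4.54).

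The T-box match tbx-8 (Unigene41126), a factor of embryonic body shape in C. elegans, had 1 male and 106 female fragments. Its levels were 0.0673 and 6.62 FPKM, a female-to-male ratio of 98.4 (17.3 to 3922), and it passed the size rule. The TBX10 match (Unigene43717) had 0 male and 15 female fragments, at least 4.64-fold higher in the female worm.

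GATA factors, zinc finger proteins that direct gut and epidermal fates in nematodes, had 3 members and 0 past the size rule. The match to GATA-3 (Unigene8618) was the most abundant, at 5.24 against 11.8 FPKM (ratio 2.25, 1.83 to 2.78). A match to the insect gene serpent (Unigene5371) was at 0.484 against 4.94 FPKM (ratio 10.2, 6.01 to 18.7) and fell just short of the level the size rule asks for. The match to elt-2 (CL2353.Contig2), the factor of intestinal identity in C. elegans, was at 0.467 against 1.65 FPKM (ratio 3.54, 2.16 to 6.02). Its cluster mate CL2353.Contig1, not called by the authors, ran the other way with 69 male and 47 female fragments, and the cluster sum was 1.31-fold (0.992 to 1.74), an interval that includes 1.

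Of 8 general transcription factor matches, 5 were higher in the female worm, a share not far from that of all described rows, and 0 passed the size rule. The TFIIH subunit 5 match (Unigene18215), part of the complex that opens promoter DNA, was at 13.9 FPKM in the male worm and 43.1 FPKM in the female (ratio 3.11, 2.74 to 3.53). TFIIH subunit 4 (Unigene11038) was at 8.44 against 20.2 FPKM (ratio 2.39, 2.07 to 2.77), and TFIIF subunit 1 (CL5040.Contig2) at 126 against 491 fragments (ratio 3.62, 2.97 to 4.43). The TFIIE alpha subunit, which recruits TFIIH, was represented by cluster CL5251, whose contigs had 105 and 16 male fragments and 0 female fragments. CL5251.Contig1 was at 3.53 FPKM in the male worm, at least 37.7-fold higher than in the female, and the RefSeq list holds 1 gene of the symbol GTF2E1. The TFIIIC subunit 5 matches, of the factor that binds tRNA gene promoters, had 4 male and 25 female fragments on CL3756.Contig1 and 3 and 25 on CL2589.Contig2, whose cluster had 16 and 65 in sum. The remaining male-side match (Unigene24327) was named TFIIIB only by KEGG, and its Swiss-Prot hit was an uncharacterized protein, K02A2.6, whose symbol 21 genes carry in the RefSeq list.

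The gamma subunit of NF-Y, a factor that binds CCAAT boxes of promoters, had opposite contigs under a single cluster name. CL2.Contig1 had 3 male and 75 female fragments, at 0.159 against 3.69 FPKM, a female-to-male ratio of 23.2 (7.64 to 115). CL2.Contig2 had 91 male fragments and 1 female fragment, at 4.98 against 0.0508 FPKM, a male-to-female ratio of 98.1 (17.2 to 3915). The contigs were 1026 and 995 bases long, and the RefSeq list holds 1 gene of the symbol NFYC. In sum the cluster had 94 male and 76 female fragments, 1.33-fold higher in the male worm with an interval of 0.974 to 1.83 that includes 1. Each worm thus carried mainly a different contig of NF-YC at a like total.

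**Figure D5:**
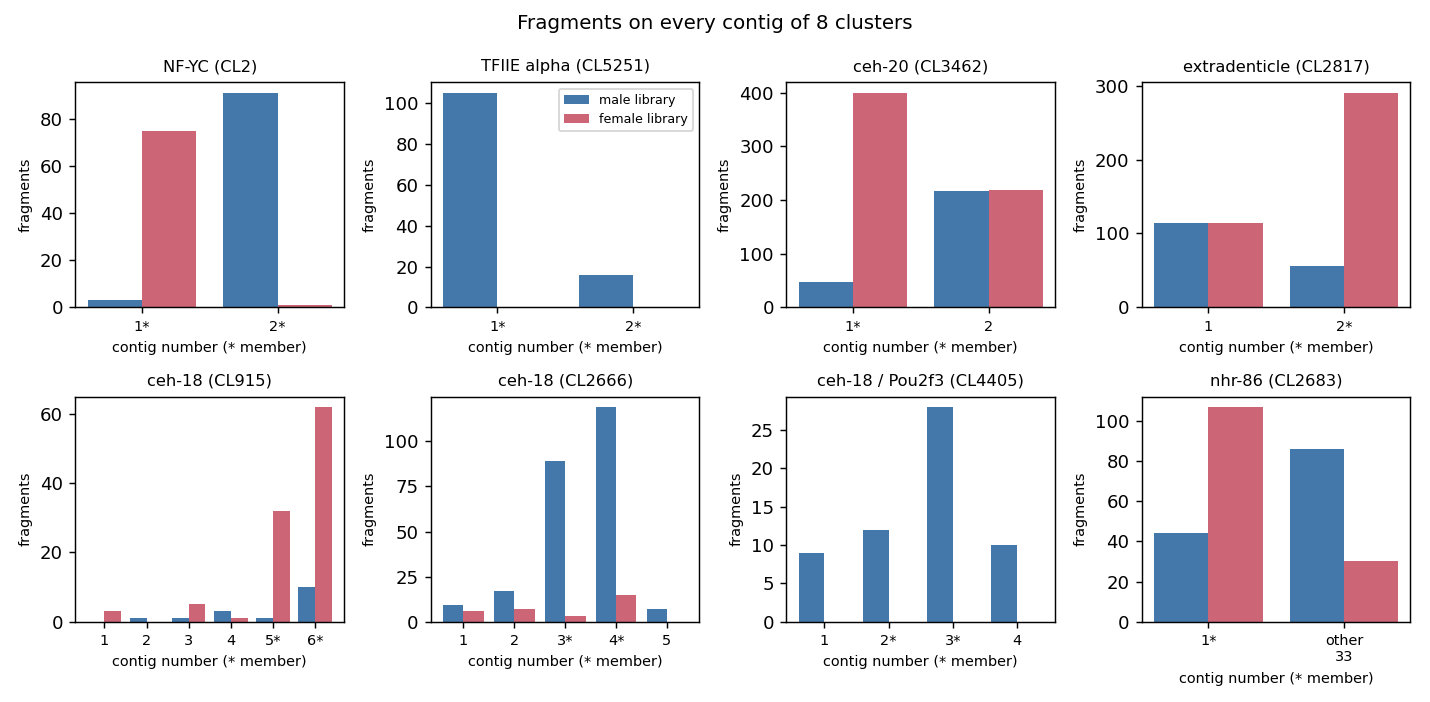
Bars give fragments per contig in the male and female libraries for 8 clusters that hold members, with an asterisk on member contigs, on a linear axis from 0 and for nhr-86 with the 33 other contigs summed. NF-YC shows opposite contigs, and ceh-20 and extradenticle (members of both are ceh-20 in Nr) show 1 level and 1 unequal contig. The ceh-18 clusters lie on opposite sides.

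Across all members, 52 unigenes fell into 37 clusters, which also held 116 contigs that were not members. Summed over all contigs, 28 of the 37 clusters still differed at least 2-fold and 9 did not. Of the 36 clusters whose members pointed the same way, 1 had its sum in the other direction. This was CL2683, a match to nhr-86, where the member contig had 44 male and 107 female fragments and the whole cluster 130 and 137, a female-to-male ratio of 0.978 (0.764 to 1.25).

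Among the other factors, several classes lay wholly on the female side. The expression helix-loop-helix matched 0 rows, but 3 basic helix-loop-helix proteins were reached through other words and all were higher in the female worm. Of these TCF12 (CL4368.Contig2), a dimer partner of tissue-specific helix-loop-helix factors, was at 1.79 against 12.6 FPKM (ratio 7.05, 5.36 to 9.41). All 5 SOX matches and all 3 AP-2 matches were higher in the female worm as well. An AP-2 match (Unigene247), from a family of ectoderm and neural crest factors in vertebrates, was at 1.40 against 25.7 FPKM, a female-to-male ratio of 18.3 (12.7 to 27.3). The SOX11 match (Unigene7929), an HMG-box factor, was at 0.664 against 6.35 FPKM (ratio 9.55, 6.27 to 15.2).

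None of the further SOX, AP-2 and helix-loop-helix matches passed the size rule. Of the SOX matches, SOX-2 (Unigene12292) was at 1.97 male and 5.44 female FPKM (ratio 2.76, 1.90 to 4.10), and SOX-6 (Unigene21875) at 0.862 and 3.87 FPKM (ratio 4.49, 2.72 to 7.80). The SBP-1 match (Unigene18710), the sterol-regulated factor that drives fat synthesis genes in C. elegans, was at 5.26 and 11.9 FPKM (ratio 2.26, 1.73 to 2.96). The Fos match (CL1471.Contig1), named kayak after the Drosophila gene, had 14 male and 118 female fragments. Its cluster of 5 contigs had 123 and 204 fragments, a female-to-male ratio of 1.54 (1.22 to 1.94). An E2F8 match (CL1576.Contig2), of a class that represses cell cycle genes, had 15 and 58 fragments.

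Zinc finger and Adf-1 matches split between the worms under a shared name. For spr-4, a repressor of presenilin transcription in C. elegans, Unigene15801 was at 7.66 male and 18.8 female FPKM (ratio 2.46, 1.96 to 3.11), while Unigene23815 had 22 male fragments and 1 female fragment. The RefSeq list holds 2 spr-4 genes. Of the Adf-1 matches, Unigene13471 had 45 male and 197 female fragments, whereas CL4665.Contig1 and CL4665.Contig2 had 36 and 84 male against 8 and 43 female fragments. A contig of that cluster outside the members, CL4665.Contig3, had 730 male and 28 female fragments, and the cluster sum had a male-to-female ratio of 11.6 (9.20 to 14.8).

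Of the most abundant matches outside the named families, 3 whose descriptions agreed on the class of factor differed by 3.08-fold to 3.98-fold, in opposite directions. The Sp-family match (Unigene6279), described in Nr as SPTF-3 and of a class that binds GC-rich promoters, was at 34.2 FPKM in the male worm and 115 FPKM in the female (ratio 3.36, 3.16 to 3.57). An ATF-5 match (Unigene23022), a bZIP factor, was at 15.0 against 59.6 FPKM (ratio 3.98, 3.51 to 4.53). A further bZIP match (Unigene6523), named ATF4 by KEGG and ZIP-2 in Nr, was the most abundant member in the male worm, at 149 against 48.4 FPKM, a male-to-female ratio of 3.08 (2.93 to 3.23). ATF4 is known as a factor of the stress response to amino acid shortage, but the names of this match agree only on the bZIP class. The 6375 male fragments of Unigene6523 were a large part of the 18564 on all members. Without this unigene the members took 664 per M fragments in the male worm and 1663 per M in the female worm. The heat shock factor match (Unigene4187), which activates chaperone genes, was at 6.25 against 15.4 FPKM (female-to-male ratio 2.47, 2.12 to 2.87).

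Fewer matches of this group were higher in the male worm, and the largest of them had doubtful names. A KEGG match to RE1-silencing transcription factor (CL332.Contig7) had 503 male and 0 female fragments, at 42.6 FPKM and at least 180.7-fold higher, but its Swiss-Prot hit was a myosin light chain kinase. All 7 contigs of its cluster had 0 female fragments. CL3401.Contig2, an ATF-5 match by KEGG, was at 31.1 against 0.149 FPKM, a male-to-female ratio of 208.7 (95.6 to 570), and had a zinc finger protein as Swiss-Prot hit and an insect ETS protein as Nr hit. These 2, with Lhx2 and ceh-6, were the 4 members past the size rule in the male direction. The neuronal factor match unc-3 (Unigene32822), which sets cholinergic motor neuron identity in C. elegans, was at 1.84 against 0.311 FPKM (male-to-female ratio 5.93, 2.01 to 23.7).

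In all, 11 members had descriptions that disagreed on the class of protein or named another kind of protein, such as a membrane protease that cleaves a factor (CL674.Contig8). The male worm had the higher level for 6 of these and the female worm for 5. Without them, 86 of 105 members were higher in the female worm, and the size rule gave 16 in the female and 2 in the male direction. The most abundant of the 11 in the female worm (Unigene9001), at 26 against 83.8 FPKM (female-to-male ratio 3.23, 2.80 to 3.74), was named by Swiss-Prot for a protein associated with thyroid transcription factor 1 and not for a factor. This set was chosen after the values had been seen.

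Values close to the size rule give its sharpness. The nearest inside were nhr-23 at a log2 value of 2.05, ceh-20 at 2.12 and SOX11 at 2.14. The nearest outside, with at least 5 FPKM, were nhr-19 at 1.95, the vab-15 match Unigene41112 at 1.95 and ceh-13 at 1.95.

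Other genes of transcription in the authors' table, matched by name and not members, differed from list to list. Among described rows, 53.8% were higher in the female worm, and 9.05% and 13.8% passed the size rule in the female and male directions. Of 17 matches named for subunits of Mediator, the complex that links factors to RNA polymerase II, 13 were higher in the female worm. The size rule was passed by 2 there and by 1 in the male direction. Several matches on both sides were named Mediator by only 1 of the descriptions. The male match past the size rule (CL3424.Contig1) was among them, with a linker histone polyprotein as Swiss-Prot hit. ETS factors, which carry a winged helix-turn-helix domain, had 4 of 4 matches higher in the female worm. Among them Unigene39917, an Elk-4 match, had 0 male fragments and 42.3 FPKM in the female worm, at least 374-fold higher. All 5 matches to SMAD proteins, which carry TGF-beta signals to the nucleus, were higher in the female worm, with ratios from 2.11 to 9.28 and 0 past the size rule, the highest on 2 male and 20 female fragments. The zinc finger list lay near the described rows, with 39 of 65 (60%) higher in the female worm. Past the size rule were 5 (7.69%) in the female and 6 (9.23%) in the male direction. The latter include the AN1-type matches Unigene26624, CL264.Contig1 and CL264.Contig2, the last 2 from a single cluster. B-box matches to ncl-1 were on the female side. Whether such proteins act in transcription was not tested.

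Matches to the core transcription apparatus were more often higher in the male worm, beside 46.2% of described rows, but many were contigs of a few clusters. Of 39 matches to TFIID, TFIIB and related factors, which bind the promoter first, 31 were higher in the male worm, with 5 past the size rule, and 1 of the other 8 passed it on the female side. Of the 31, 16 were contigs of the single cluster CL494, a TAF4 match, and 4 were contigs of CL500, named TAF12 by Swiss-Prot and intestinal mucin by KEGG. Without both clusters the split was 11 male to 8 female. The TATA-binding protein (Unigene22920), the subunit that contacts the TATA box, was on the female side at 11.8 against 25.3 FPKM (ratio 2.14, 1.87 to 2.46). A TAF3 match (Unigene29328) had 9554 male and 4 female fragments, a male-to-female ratio of 2574 (1005 to 9448), and alone carried much of the 14943 male fragments of the list. TFIIB had contigs in opposite directions, with 609 male and 0 female fragments on CL2638.Contig2 and 27 and 70 on CL2638.Contig1. Unlike NF-YC, the contigs listed were not at a like total, as male fragments far outnumbered female ones. Of 12 RNA polymerase subunit matches, 10 were higher in the male worm, 4 of them RPB1 contigs of cluster CL984, and RPB9 (Unigene14204) passed the size rule with a male-to-female ratio of 9.51 (7.22 to 12.7). The coactivator and corepressor list had 10 of 16 higher in the male worm, but its leading members had KEGG definitions such as a WNK kinase (Unigene29736). In the bZIP list both matches were AP-1 clathrin adaptor subunits, which are trafficking proteins. The SOX and HMG list held 1 match, to a TOX protein (Unigene42107), with 1 male and 246 female fragments.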

How the data were processed

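Per the labels' protocols, polyadenylated RNA was fragmented, copied from random primers and amplified. The values deposited are raw counts of fragments and FPKM, per the file headers, and FPKM was recomputed from counts, lengths and library totals with a largest difference of 5.0e-05. A unigene missing from a library's table was taken as 0. The deposited log2 ratio and false discovery rate (a p-value adjusted by the authors) come from the authors' own comparison, whose test, like assembler, aligner and genome build, is not given in the sources used here. Unigene lengths and the scores (E-value and other) of database matches are also deposited values.

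Members and lists were chosen with earlier results of these data known. Families were assigned from the Swiss-Prot and KEGG text. The genes named are, per family, the 4 most abundant and the outermost 2 in each direction, families of up to 6 in full, and over all members the 10 largest differences per direction past the size rule and the 5 most abundant per library; others named in the text were chosen after their values were seen. RefSeq gene symbols were used as names only, and 86 of 112 members with a Swiss-Prot symbol matched. No unigene sequence was used here. The libraries hold 18.4 M male and 19.8 M female fragments, so that 3 fragments on 1 kilobase are 0.163 male and 0.152 female FPKM. Python 3.11.15, NumPy 2.4.6, pandas 2.3.3, SciPy 1.17.1 and matplotlib 3.10.9 were used, and the calculation was tested on simulated data.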

Additional observations from a re-analysis of the deposited data

How the results depend on the processing

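The median log2 ratio of 26774 unigenes with at least 10 fragments in both libraries was 0.36, so scaling to it shifts all values by that amount towards the male. Since every member differed at least 2-fold by selection, such a shift could turn no direction. The members' median then was 0.86. With a pseudocount of 0.1 FPKM it was 1.63, with no filter on low values 1.04, and with 0 counts at 3 fragments and no pseudocount 1.69. The size rule in the male direction rests on 4 members. It gave 7 with no filter, which admits members under 5 FPKM, and 2 each with Swiss-Prot names only, with the 7 family expressions only, with nematode hits only and without the 11 members of conflicting descriptions. In the female direction it ranged from 11 to 20 over the alternatives. Matching KEGG definitions only left 50 members higher in the female library. Members higher in the male library fell to 12 with the 7 family expressions and to 16 with 1 unigene per cluster and Swiss-Prot entry. The narrower matches rest on fewer members by construction, and no other cause was tested. No paired analysis was possible because each sex has 1 library, and leaving out a replicate was not possible either. Depth limits the 50 members under 100 fragments, whose intervals are wide. The conflict set and the cluster sums were chosen after the data had been seen.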
